A study of Arabidopsis thaliana with 6 samples.

Results

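CLV3, BBM and CR4 are genes of the 2 ends and the surface of the plant embryo, and their transcripts were compared between wild-type and dcl1-15 embryos of Arabidopsis thaliana. Each was taken by its name from the probe sets that the platform annotation assigns to a single gene, and each had 1 such probe set, so 3 of the 17122 probe sets tested are described here. The wild-type group held 3 arrays of torpedo stage embryos of genotype DCL1/DCL1, and the dcl1-15 group held 3 arrays of dcl1-15/dcl1-15 embryos from siliques whose normal embryos were at that stage. Both groups came from the Ws background after repeated crosses to Landsberg erecta, and each sample pooled 300 embryos taken out of the ovules. Wild-type embryos grew on DCL1/DCL1 plants and mutant embryos on DCL1/dcl1-15 plants, so the genotype of the mother differed between the groups, and mutant embryos were staged by their siblings. The 3 samples of a genotype are called biological replicates in the labels, with no statement of which plants each came from.

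DCL1 is the Dicer-like ribonuclease that releases most plant microRNAs from longer hairpin RNAs, and dcl1-15 is a mutant allele of it. CLV3 encodes a small secreted peptide of the CLE family, made by the stem cells at the top of the shoot meristem. Receptor kinases on neighbouring cells bind it and restrain the homeobox gene WUS, which in turn promotes stem cells and CLV3 expression. BBM encodes an AP2-type transcription factor of the AIL (PLETHORA) group, expressed in the embryo and the root stem cell region, which can start embryo-like growth when overexpressed. CR4, also called ACR4, encodes a receptor kinase related to maize CRINKLY4 that acts in the outer cell layer and, together with the peptide CLE40, in the stem cells of the root cap.

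Values are the deposited normalized signals on the log2 scale, on which a step of 1 is a doubling, and differences are dcl1-15 minus wild type. Array medians lay between 6.34 and 6.48 and the 10th percentile of each array between 2.34 and 2.44. The level of DCL1 was not analysed here, since 0 single-gene probe sets are assigned to it, and it gives no check of the labels. Likewise 0 of 18 markers for shoot meristem, root pole, root cap and embryo epidermis, such as STM, WOX5, SMB and ATML1, were measured by a single-gene probe set, so the pole tissues were not checked beyond the 3 genes themselves. Of 24 markers of seed coat and endosperm, the tissues around the embryo, 7 were measured and 6 of them rose in dcl1-15, with a median difference of 1.70 over the 7 and 18.3% of all probe sets called higher (the exception, AT5G26630, had all its values under log2 of 4 and differed by -0.15). The summed signal of the 7, in log2, lay between 11.21 and 11.40 on the wild-type arrays and between 12.66 and 12.89 on the mutant arrays. The sum hides the spread of single markers. On the wild-type arrays numbered 1, 2 and 3, DELTA-VPE measured 7.23, 9.77 and 8.58 and DFR 6.6, 8.56 and 7.98. BAN measured 1.53, 3.65 and 2.56 there. They and the marker SAG29 were lowest on number 1, while the other markers, SWEET11, AT1G71250 and AT5G26630, were highest there. The part of these markers in the results below was not tested.

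All 3 genes fell in dcl1-15 embryos. BBM was 3.02-fold lower and CR4 1.90-fold lower, as folds of normalized signal. The normalized log2 value of CLV3 fell by 1.44, but all its values lie at the low end of the scale, so this is not given as a fold, and with a floor at log2 of 4 no difference is left. A fall of this kind is common in these data, since 20.8% of the probe sets tested were called lower at an adjusted p under 0.05. In a pool of whole embryos, fewer cells of a type and less RNA per cell cannot be told apart.

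CLV3 (AT2G27250, chromosome 2), the shoot stem cell peptide gene, measured 3.71, 2.91 and 2.58 on the wild-type arrays numbered 1, 2 and 3. In dcl1-15 it measured 1.82, 1.43 and 1.63 in the same order. Every mutant value lay below every wild-type value, with a gap of 0.76 between the lowest wild-type and the highest mutant value. The means were 3.07 ± 0.58 and 1.63 ± 0.19 (SD, n = 3 each), a difference of -1.44 ± 0.27 (SE, 95% confidence interval -2.05 to -0.82, limma adjusted p = 0.00371). All 6 values are at the low end of the scale, and the 3 mutant values lie below the 10th percentile of their arrays while the 3 wild-type values lie above it. Among the 3323 probe sets with all 6 values under log2 of 4, 11.7% were called lower. With values under 4 raised to 4, CLV3 has a difference of 0 (adjusted p = 1.0). Its distance from background is unknown, because detection calls were not used here.

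BBM (AT5G17430, chromosome 5), the AP2-type factor, measured 6.02, 5.0 and 5.45 on the wild-type arrays. The mutant arrays gave 3.97, 3.75 and 3.98. The genotypes did not overlap, and the gap of 1.03 between them was about as wide as the wild-type range of 1.02. From 5.49 ± 0.51 the mean went to 3.90 ± 0.13 (SD, n = 3 each), a difference of -1.59 ± 0.29 (SE, 95% confidence interval -2.26 to -0.93, limma adjusted p = 0.00331). The mutant values lie just under log2 of 4, and with the floor there BBM still fell, by 1.49 (adjusted p = 0.0196).

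CR4 (AT3G59420, chromosome 3), the receptor kinase gene, measured 7.89, 8.22 and 8.16 on the wild-type arrays. It measured 7.27, 6.97 and 7.25 on those of dcl1-15. The genotypes did not overlap here either, with a gap of 0.61, and the spread within a genotype was narrow, 0.33 in wild type and 0.30 in dcl1-15. The mean went from 8.09 ± 0.18 to 7.16 ± 0.17 (SD, n = 3 each), a difference of -0.92 ± 0.21 (SE, 95% confidence interval -1.40 to -0.45, limma adjusted p = 0.00832). All 6 CR4 values lie above the median of their arrays, so the floor does not touch them.

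**Figure D1:**
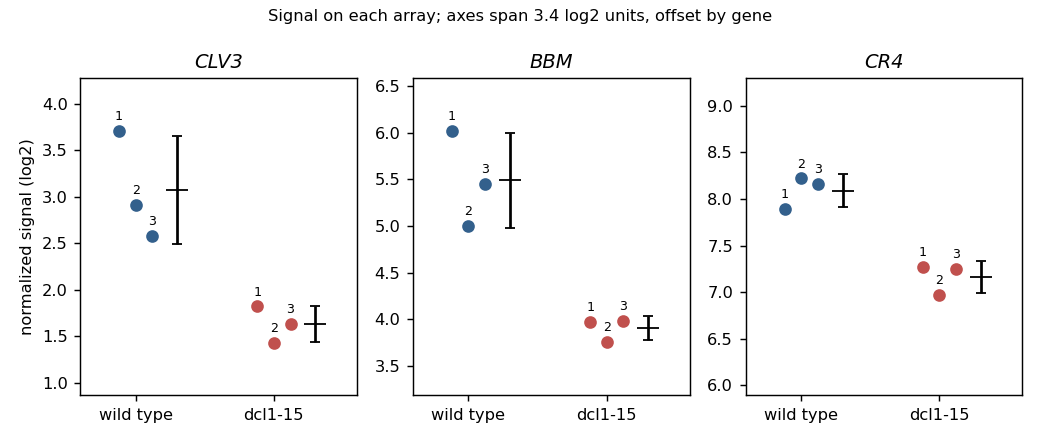
Normalized signal (log2, vertical axis) of CLV3, BBM and CR4 on each of the 3 wild-type (blue) and 3 dcl1-15 (red) arrays, with the array's replicate number above each point and the mean ± SD at the right of each group. In each panel all red points lie below all blue points, and the wild-type points are more spread for CLV3 and BBM (SD 0.58 and 0.51) than for CR4 (SD 0.18).

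Lack of overlap with the mutant lower was found for 28.5% of all probe sets tested, so it does not set the 3 genes apart. In either direction it was found for 52.5%. For each gene alone the exact permutation test over the 20 splits of the 6 arrays gave p = 0.1 (two-sided), the smallest value that 3 against 3 arrays allow. Set among all probe sets, 4.2% had a lower difference than BBM, 5.4% a lower one than CLV3 and 13.4% a lower one than CR4. The median difference over all probe sets was -0.07.

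**Figure D2:**
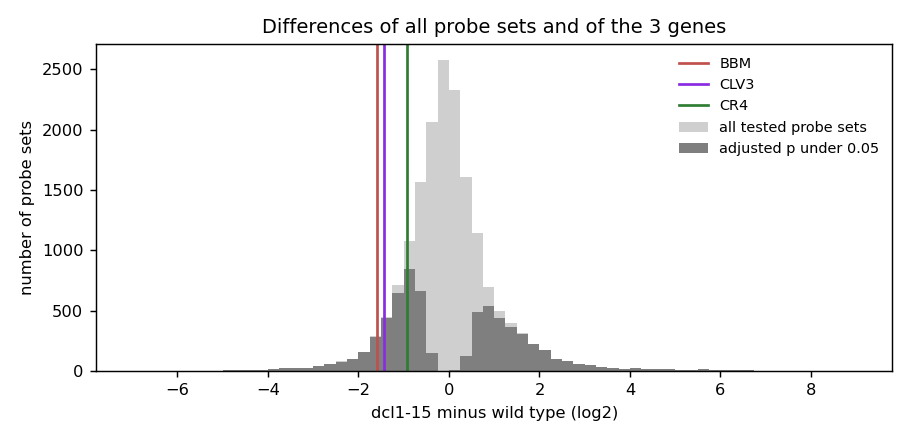
Number of probe sets (vertical axis) by their difference dcl1-15 minus wild type in log2 (horizontal axis), for all 17122 tested (light grey) and for those with an adjusted p under 0.05 (dark grey). Vertical lines mark BBM at -1.59, CLV3 at -1.44 and CR4 at -0.92, on the lower side of the distribution but far inside its lowest value of -6.81.

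The 3 genes were also compared in how far they moved, by the exact permutation test on the within-array difference of their log2 values, with p-values adjusted over the 3 pairs. The differences of CLV3 and BBM were 0.16 apart (95% confidence interval -0.51 to 0.82, exact p = 0.9, adjusted p = 0.9). Those of BBM and CR4 were 0.67 apart, BBM having the lower one (interval -1.76 to 0.42, exact p = 0.1, adjusted p = 0.3). The differences of CLV3 and CR4 were 0.51 apart, CLV3 having the lower one (interval -1.71 to 0.68, exact p = 0.3, adjusted p = 0.45). Both comparisons with CLV3 rest on its values at the low end of the scale. With the floor at log2 of 4, CLV3 minus BBM became 1.49 and CLV3 minus CR4 turned to 0.92 (exact p = 0.1 each), because the difference of CLV3 is then 0. With 3 arrays per genotype the exact p cannot lie under 0.1, so no pair could pass at 0.05 and this test cannot decide. The 3 intervals are t intervals with the spread pooled over the genotypes, and each holds 0. They leave room for a fall of BBM more than 1 log2 unit larger than that of CR4.

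Among the arrays, wild-type replicate 1 had the highest CLV3 and BBM values of its genotype and the lowest CR4 value. Without it the differences were -1.12 for CLV3, -1.33 for BBM and -1.02 for CR4 (limma adjusted p = 5.88e-04, 0.00141 and 0.00250). The mutant array numbered 2 held the lowest mutant value of each of the 3 genes, and without it the differences were -1.34, -1.52 and -0.83 in the same order (adjusted p = 0.0237, 0.0222 and 0.0401). When both arrays numbered 2 were left out, CLV3 differed by -1.42 (adjusted p = 0.0541) and CR4 by -0.76 (adjusted p = 0.140), while BBM passed at -1.76 (adjusted p = 0.0308). Without those numbered 3, CR4 differed by -0.93 (adjusted p = 0.0945).

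**Figure D3:**
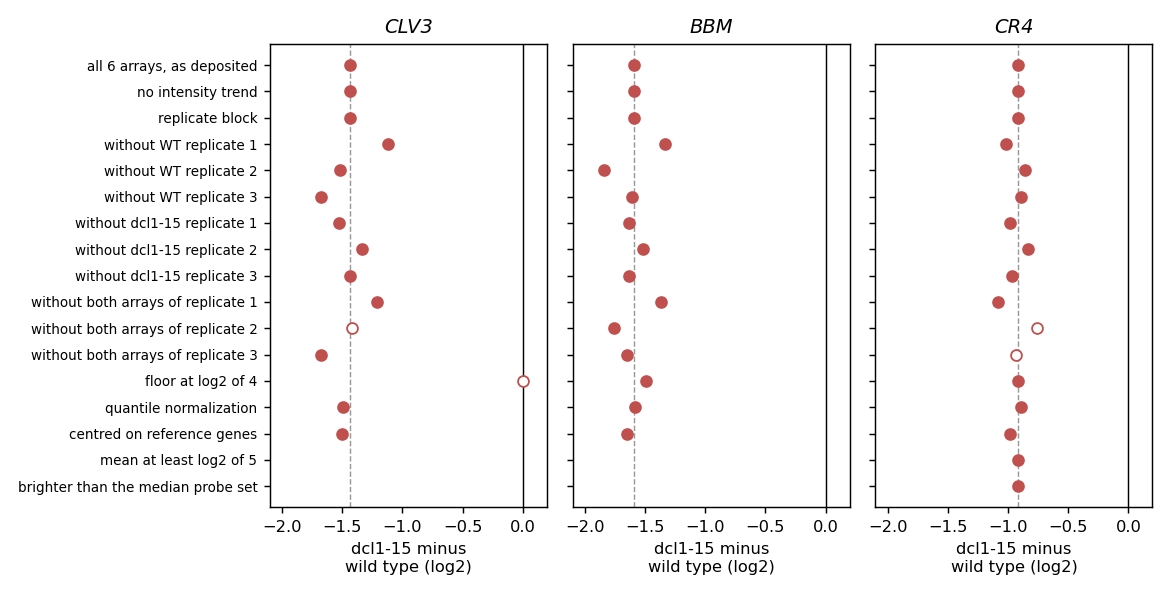
Difference dcl1-15 minus wild type (log2, horizontal axis) of each gene with all 6 arrays as deposited and in each other processing of the same arrays (vertical axis), with filled points at an adjusted p under 0.05 and open points above it. The dashed line marks the value as reported, and all points lie below 0 except that of CLV3 with a floor at log2 of 4, which is at 0. CLV3 and BBM have no point in the last 2 settings, because their means were under both filters.

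Genes that act with CLV3 were followed through a list of 44 genes of the CLV3-WUS circuit, of which 6 were measured. Of these 2 fell, 0 rose in limma (also 0 at an unadjusted p under 0.05) and 4 did not pass, with a median difference of -0.35. Of all probe sets tested, 20.8% fell and 18.3% rose. CLV1, CLV2 and WUS were among the 38 not measured by a single-gene probe set. AT2G23950, a listed locus that the annotation used here leaves unnamed, measured 6.77, 7.21 and 7.40 in wild type and 5.74, 5.78 and 5.63 in dcl1-15. Its groups did not overlap, with the mutant lower, as for 28.5% of all probe sets. It fell by 1.41 ± 0.25 (SE, limma adjusted p = 0.00260). This call was lost without both arrays numbered 2 (difference -1.40, adjusted p = 0.0587) or both numbered 3 (difference -1.23, adjusted p = 0.0615). AT5G45780, also unnamed there, fell by 0.79 ± 0.22 (adjusted p = 0.0229), and this call was lost without wild-type replicate 3, without dcl1-15 replicate 2 or without dcl1-15 replicate 3 (adjusted p = 0.0803, 0.0867 and 0.0886). POL, a protein phosphatase that acts downstream of the CLV receptors, measured 8.31 to 8.74 in wild type and 7.86 to 8.46 in dcl1-15 (difference -0.35, adjusted p = 0.250). PHV, a homeodomain gene of the upper organ side and a target of miR166, differed by -0.36 (limma adjusted p = 0.124). Its groups did not overlap, again with the mutant lower, as for 28.5% of all probe sets. ULT1, a regulator that limits meristem size, measured 11.25 to 11.48 in wild type and 11.44 to 11.63 in dcl1-15, and differed by 0.17 (adjusted p = 0.218). ARR15, a cytokinin response regulator, differed by 0.19 (limma adjusted p = 0.310) at 2.43 to 2.69 on all 6 arrays. Its groups also did not overlap, as for 52.5% of all probe sets in either direction.

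CLV3 belongs to the CLE peptide family, of which 4 other genes were measured, and these did not move together. CLE41, whose peptide keeps vascular stem cells from differentiating, measured 7.92, 7.25 and 7.00 in wild type and 4.43, 3.82 and 4.64 in dcl1-15. It fell by 3.09 ± 0.33 (SE, limma adjusted p = 2.19e-04), or 8.52-fold, with a confidence interval of -3.84 to -2.34. The mutant value of 3.82 is under log2 of 4, and with the floor the difference was -3.03 (adjusted p = 0.00489). CLE44, known to give the same mature peptide as CLE41, measured 3.69, 2.78 and 2.98 in wild type and 5.43, 5.26 and 4.75 in dcl1-15. It rose by 2.00 ± 0.30 (adjusted p = 0.00126). The groups did not overlap in either gene, as for 52.5% of all probe sets in either direction, and lay in opposite order. The wild-type values of CLE44 are all under log2 of 4, and with the floor its rise was 1.15 (adjusted p = 0.0147). CLE40, which acts with CR4 in the root cap, measured 1.20 to 1.65 in wild type and 1.58 to 2.14 in dcl1-15, overlapping groups at the low end of the scale (difference 0.31, adjusted p = 0.218). CLE27 measured 4.62 to 5.27 in wild type and spread from 4.07 to 6.13 in dcl1-15 (difference 0.10, adjusted p = 0.889).

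Of 38 genes listed with BBM as its relatives, root stem cell factors, embryogenic regulators and auxin genes, 4 were measured. Of these 1 fell, 2 rose and 1 did not pass, with a median difference of 0.46. The shares over all probe sets tested were 20.8% lower and 18.3% higher. JKD, a zinc finger factor that works with SHR and SCR in the root ground tissue and stem cell niche, measured 6.83, 6.79 and 6.31 in wild type and 3.69, 3.33 and 2.95 in dcl1-15. It fell by 3.32 ± 0.28 (SE, limma adjusted p = 6.51e-05), and its groups lay far apart. The mutant values are all under log2 of 4, and with the floor there the difference was -2.64 (adjusted p = 0.00134). AGL18, a MADS-box factor, rose from 7.82, 8.88 and 8.67 to 9.92, 10.21 and 10.56, a difference of 1.77 ± 0.29 (adjusted p = 0.00176). AT1G72570, a listed locus without a name in the annotation used here, rose by 1.16 ± 0.18 (adjusted p = 0.00143) from 1.74 to 2.21 in wild type to 2.90 to 3.27 in dcl1-15. All its values are under log2 of 4, and with the floor its difference is 0. YUC4, an auxin synthesis enzyme, differed by -0.25 (adjusted p = 0.435) with overlapping groups. PLT1, PLT2, WOX5, SHR and SCR were not measured by a single-gene probe set.

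Of 34 genes listed with CR4 for epidermis and root cap, 4 were measured. Of these 0 fell in limma (also 0 at an unadjusted p under 0.05), 1 rose and 3 did not pass, with a median difference of 0.47. Beside this, 20.8% of all probe sets tested fell and 18.3% rose. GSO1, a receptor kinase needed for an unbroken embryo cuticle, measured 8.61, 8.33 and 8.08 in wild type and 9.48, 9.0 and 8.98 in dcl1-15. It rose by 0.82 ± 0.21 (SE, limma adjusted p = 0.0165), opposite in direction to CR4. Its groups did not overlap, as for 52.5% of all probe sets in either direction. The call for GSO1 was lost without wild-type replicate 3 (adjusted p = 0.0574) or without dcl1-15 replicate 1 (adjusted p = 0.0581). AT1G50650 measured 9.79 to 10.82 in wild type and 10.69 to 11.05 in dcl1-15 and did not pass (difference 0.64, adjusted p = 0.0639). With the replicate number as a block it rose (adjusted p = 0.00920), and also without wild-type replicate 1 (difference 0.91, adjusted p = 0.00142). AT5G01075 measured 10.42 to 11.09 and 10.29 to 10.65 in the 2 genotypes (difference -0.24, adjusted p = 0.335), and CLE40, given above, was the fourth gene.

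The 3 pathway lists together held 14 measured genes, of which 3 fell, 3 rose and 8 did not pass, with a median difference of -0.03 against -0.07 over all probe sets. Over all probe sets 20.8% fell and 18.3% rose, so neither share is far from that background. The lists were written with earlier results of these data known, and only 14 of their genes were measured, so they do not describe the pathways as wholes.

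**Figure D4:**
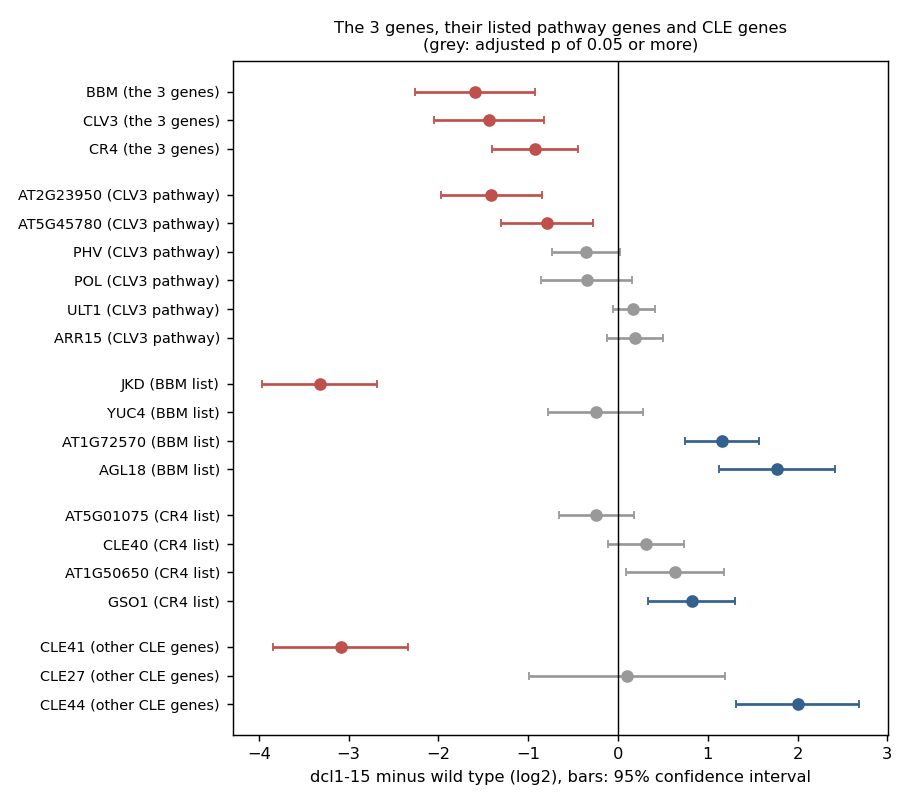
Difference dcl1-15 minus wild type (log2, horizontal axis) with 95% confidence intervals for the 3 genes, the measured genes of the 3 pathway lists and the other CLE genes (CLE40 is drawn once, with the CR4 list). Red points fell, blue points rose and grey points had an adjusted p of 0.05 or more; CLE41 and JKD, at -3.09 and -3.32, lie below CLV3, BBM and CR4.

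The genes closest in pattern to each of the 3 were sought among 1304 probe sets of other genes with a symbol. Likeness was the root mean square difference between the 6 log2 values after each gene was centred on its own mean. The values were not scaled, so small values mean a similar course and a similar size of change over the 6 arrays. The 6 points share the 2 genotypes and the arrays themselves, so the measure is a description. The nearest genes were picked by these same values, so a shared order of the arrays is largely set by the choice. CLV3 was nearest to XI-I, a class XI myosin gene, at 0.145, followed by CF9 at 0.218 and the SKP1-like gene SK18 at 0.220. XI-I measured 9.46, 8.57 and 8.52 in wild type and 7.69, 7.55 and 7.55 in dcl1-15, highest on the wild-type array numbered 1 as CLV3 was. BBM was nearest to TOPP7, a type 1 protein phosphatase gene, at 0.119, then to IAA33 of the Aux/IAA family at 0.143 and MEF8S, an RNA editing factor gene, at 0.160. IAA33 measured 3.81, 2.96 and 3.64 in wild type and 2.12, 1.92 and 1.99 in dcl1-15, with the order of the wild-type arrays the same as for BBM. All 6 IAA33 values are under log2 of 4. CR4 was nearest to NdhN, a subunit of the chloroplast NDH complex, at 0.095, then to XCT, a gene of the circadian clock, at 0.097 and to the flowering bZIP gene FD at 0.105. FD measured 1.96 to 2.23 in wild type and 1.07 to 1.55 in dcl1-15, all at the low end of the scale. NdhN measured 3.09 to 3.16 in wild type and 2.05 to 2.23 in dcl1-15, also all under log2 of 4.

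Between the 3 genes, CLV3 and BBM were 0.251 apart by this measure, and of 1303 other probe sets 8 lay nearer to CLV3 than BBM did and 11 nearer to BBM than CLV3 did. CR4 was 0.501 from CLV3 and 0.517 from BBM, and 39.1% and 41.5% of the others lay nearer to it than these. The measure also counts the size of a change, and CR4 differed by -0.92, CLV3 by -1.44 and BBM by -1.59. The part of this in the shares was not tested. Seen from the other side, 12.1% lay nearer to CLV3 than CR4 did, and 12.3% nearer to BBM than CR4 did. CLV3 and BBM both had their highest value on the wild-type array numbered 1, while CR4 had its lowest wild-type value there. The 3 genes lie on chromosomes 2, 5 and 3, and DCL1 lies on chromosome 1.

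**Figure D5:**
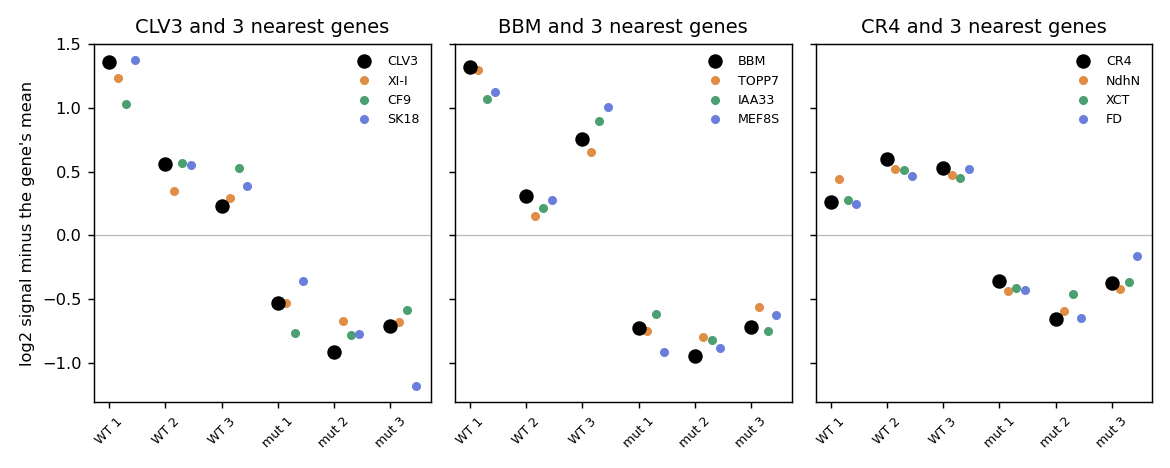
Log2 signal minus the gene's mean over the 6 arrays (vertical axis) on each array (horizontal axis, WT wild type and mut dcl1-15) for CLV3, BBM and CR4 (black) and the 3 genes nearest to each (coloured). The wild-type array numbered 1 is the highest in the CLV3 and BBM panels, and in the CR4 panel the wild-type points lie close together.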

How the data were processed

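The deposited table holds normalized log2 values of 6 single-colour arrays, and per the submitters' processing notes GCRMA and MAS5 were used by the authors, without versions and without saying which of them gave these values. Per the labels' protocols, 50 ng of RNA was amplified into biotin-labelled cDNA. The choice of rows is not stated. After 37 control probe sets were set aside, 17122 were tested. The platform annotation names 1 gene for 9631, several for 365 and none for 7126, and 9584 of the 9631 were found in the RefSeq table of assembly TAIR10.1, which gave symbols and chromosomes. A gene on a list was matched by locus tag.

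All probe sets were fitted in limma 3.58.1 (R 4.3.3) by lmFit and by eBayes with its trend option, two-sided. P-values were adjusted by Benjamini-Hochberg over all of them and read at 0.05. The fit was checked on simulated data. Single values were also tested by exact permutation. The 3 genes, the lists and the tests were chosen with earlier results of these data known. The rule for genes named took CLV3, BBM and CR4, every measured gene of the 3 pathway lists and of the CLE family, and the 3 nearest genes by pattern. CLE genes were found by symbol or synonym. Reference genes for 1 of the scalings were AT2G28390, AT4G34270 and PEX4. Promoter and protein sequences were not used here.

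After each group mean was subtracted, arrays that share a number correlated at 0.48, 0.21 and 0.36. As each exceeds 0.1, the numbers were treated as pairs in 1 alternative. This comes from the data, and unmatched pairs reached 0.31, so pairing of the arrays numbered 2 and 3 is not shown. For arrays, their number limits the precision.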

Additional observations from a re-analysis of the deposited data

How the results depend on the processing

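BBM fell in all 14 alternatives that could be run for it, with differences of -1.84 to -1.33 (highest adjusted p = 0.0409). CR4 kept direction and call in 14 of 16 and CLV3 in 12 of 14. The exceptions are CLV3 without both arrays numbered 2 (-1.42) or with the floor at log2 of 4 (0), and CR4 without both arrays numbered 2 (-0.76) or 3 (-0.93). Fewer arrays were tested in those fits, and the floor lies above every CLV3 value. CLV3 and BBM could not be run with the 2 filters on dim probe sets. With 1 array left out, CLV3 ranged from -1.68 to -1.12, BBM from -1.84 to -1.33 and CR4 from -1.02 to -0.83, all past the threshold. Without both arrays numbered 1, CR4 differed by -1.08. With the replicate number as a block the differences were the same, and the limma adjusted p was 6.33e-04 for CLV3, 9.44e-04 for BBM and 0.00561 for CR4; among the listed pathway and CLE genes, the block moved the call of AT1G50650 alone. The reference genes AT2G28390, AT4G34270 and PEX4 differed by 0.39, -0.12 and -0.09 (0 passed in limma and 1 had an unadjusted p under 0.05), and with the arrays centred on them CLV3, BBM and CR4 differed by -1.50, -1.65 and -0.98.

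The count of probe sets called, 6702, was 2493 without both arrays numbered 2, 3151 without those numbered 3, 4161 with the floor, 4409 for means of at least log2 of 5 and 3369 for the brighter probe sets, the last 2 over fewer probe sets. It was 8905 without both arrays numbered 1 and 4486 to 7976 with 1 array left out. Of the 14 listed genes, 6 were called, 4 to 7 with 1 array left out and 3 without both arrays numbered 2 or both numbered 3. The difference between CLV3 and BBM turned to -0.07 without wild-type replicate 3 (range -0.07 to 0.32 with 1 array left out), and that between CLV3 and CR4 to 0.92 with the floor, which sets the difference of CLV3 to 0 (range -0.79 to -0.09). BBM against CR4 ranged from -0.98 to -0.31. CLE27, which never passed, differed by -0.04 without wild-type replicate 3, -0.47 without dcl1-15 replicate 1, 0.56 without dcl1-15 replicate 3 and -0.28 without both arrays numbered 1, and the cause was not tested. AT5G45780 did not pass with the floor (adjusted p = 0.0529) or without both arrays numbered 2 (adjusted p = 0.162) or 3 (adjusted p = 0.239), nor did GSO1 without them (adjusted p = 0.105 and 0.104).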
